A study of Mus musculus with 7 samples.

Results

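The 34 genes described here encode proteins of homologous recombination and of the Fanconi anaemia pathway, and they were taken by symbol from a count table of 24419 mouse genes. All 34 were found and all 34 passed the filter on low counts, among 11594 genes that did. The counts come from LLC1, a mouse lung cancer cell line grown in culture, from which polyadenylated RNA was sequenced. The labels give 4 libraries of cells labelled wild type for Ddx54 and 3 libraries of cells in which Ddx54, a DEAD-box RNA helicase, was knocked down with an shRNA. They name no control construct in the wild-type cells, no shRNA sequence and no clone, and they do not tell if the replicates were separate cultures. The p-values below therefore reflect the spread among these libraries only, which could be technical.

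Homologous recombination mends a broken chromosome by copying an intact sister. The broken ends are trimmed to single strands, these strands are coated with protein, and the coated strand invades the matching duplex. The Fanconi pathway handles crosslinks between DNA strands: a core complex attaches ubiquitin to Fancd2 and Fanci, nucleases cut the lesion out, and recombination repairs the break left behind. Many of these genes are transcribed mainly in late G1 and S phase, when a sister chromatid is being made.

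Library totals ranged from 14987324 to 18673395 counts, and levels are given as CPM, counts scaled to a common library size and corrected for library composition. Ddx54 was at 78.6 to 83.2 CPM in wild type and at 39.2 to 45.9 CPM in knockdown (log2 fold change -0.90, SE 0.096, adjusted p = 6.55e-09, edgeR quasi-likelihood), so no library went against its label. For Ddx54 the exact permutation p (two-sided, 35 splits) was 0.0286, the smallest possible here. In the series the fit called 29.4% of tested genes, 14.1% higher and 15.3% lower in knockdown, and over all tested genes the median log2 fold change was 0.001. The defining marker Epcam was at or near 0 in every library, Cdh1 likewise, and Cldn4 had no count, and 2 of the 3 epithelial markers that were tested were lower. Krt18, a keratin of simple epithelia, went from 217.5 to 131.7 CPM (log2 fold change -0.72) and Krt19 from 4.39 to 1.08 CPM (-2.03, adjusted p = 0.000811), while Krt8 went from 20.3 to 23.6 CPM and did not pass (0.22, adjusted p = 0.373; edgeR). The leukocyte markers summed to between 2.29 and 5.23 CPM in wild type and to between 3.19 and 5.21 CPM in knockdown, with 1 of 12 passing the filter. The 6 endothelial markers summed to between 0.178 and 0.784 CPM in wild type and to between 0.0543 and 0.776 CPM in knockdown, with 0 passing the filter. Of these Cdh5, Tek and Cldn5 were at 0, while Kdr (up to 0.784 CPM), Pecam1 (up to 0.600 CPM) and Vwf were above 0 in some libraries. The 9 fibroblast markers summed to between 1045 and 1235 CPM in wild type and to between 1059 and 1126 CPM in knockdown. Col3a1 was by far the highest, with means of 1104.7 and 1058.8 CPM. Pdgfra had means of 18.99 and 24.47 CPM without overlap (log2 fold change 0.37, adjusted p = 0.0578, edgeR), while Thy1 had no count. Of the 9 markers 5 were tested and 0 passed (edgeR), with 1 at an unadjusted p under 0.05, 1 passing with DESeq2 and 0 with limma-voom.

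Of the 34 genes, 14 rose in knockdown and 0 fell (edgeR quasi-likelihood, adjusted p under 0.05). The 14 are 41.2% of the genes, beside 14.1% of all tested genes that were higher and 15.3% that were lower. DESeq2 and limma-voom each called 15 higher and 0 lower, and at an unadjusted p under 0.05 the main fit had 17 higher and 1 lower, Mus81. Without knockdown replicate 1 the count higher was 9. The rises were moderate, from 1.21 to 1.97 fold, and the median log2 fold change of the 34 genes was 0.39. Of the 20 that did not pass, 12 had a positive and 8 a negative log2 fold change. In 18 genes, 52.9% of the list, all knockdown libraries lay above all wild-type libraries, beside 17.5% of tested genes. In 0 genes did they all lie below, beside 17.6% of tested genes. Genes of the cell cycle were higher in the same libraries (21 of 31 of S phase, 38 of 50 of G2 and M phase). The library measures also differed without overlap: Rn45s, the ribosomal precursor RNA, took 10.7 to 12.47% of counts in wild type and 7.96 to 9.07% in knockdown, and 12698 to 12875 genes had counts in wild type against 13105 to 13347 in knockdown. With library sizes taken without Rn45s, 14 genes were higher. There the scaling was recomputed from the other genes, so this setting could move the count little. The part of Rn45s, of the cell cycle genes and of the number of genes with counts in the result was not tested. In a bulk sample fewer or more cells in a given state cannot be told apart from less or more RNA per cell.

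**Figure D1:**
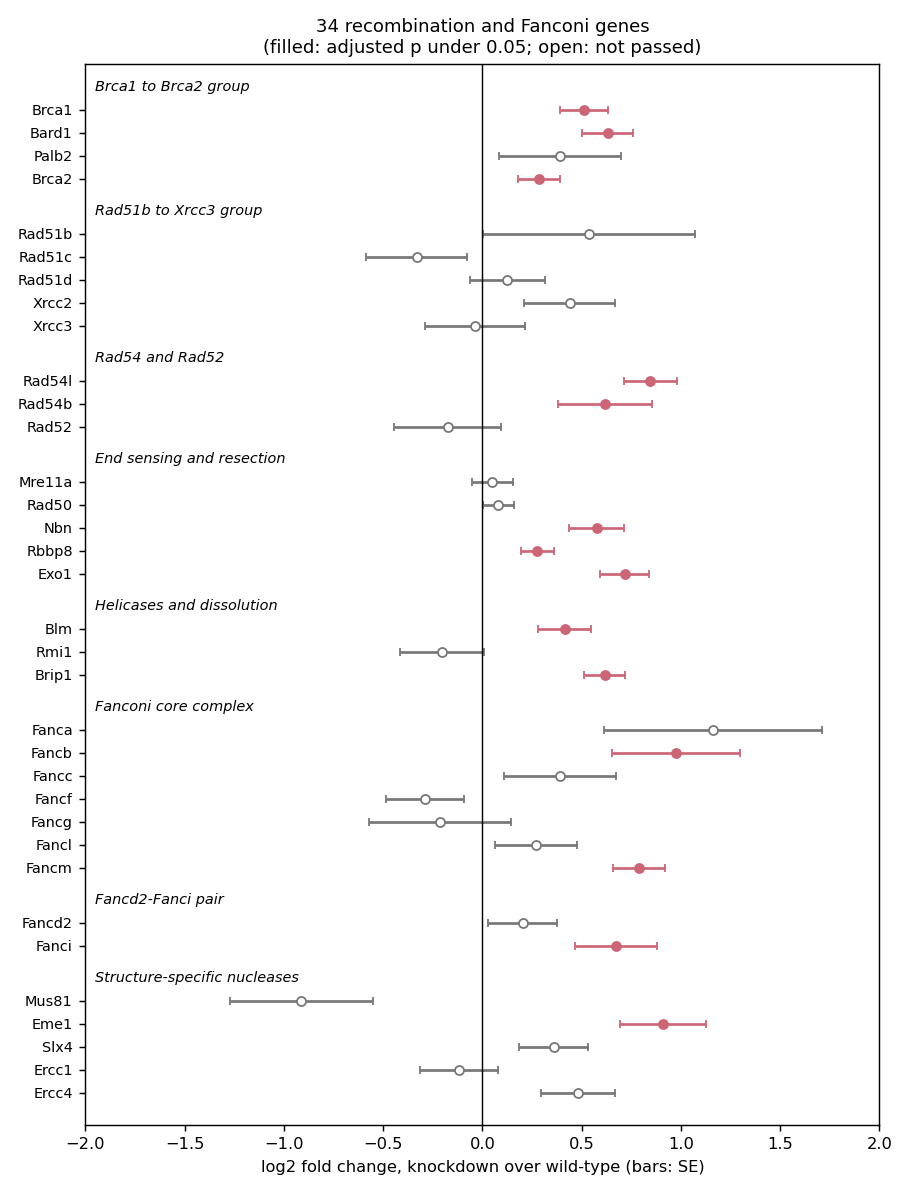
Log2 fold change of the 34 genes, knockdown over wild type (x axis; bars are SE), grouped by role on the y axis; filled points passed at adjusted p under 0.05 in the edgeR fit. The 14 filled points all lie to the right of 0, and Mus81 at -0.91 is the point farthest to the left.

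Brca1, Bard1, Palb2 and Brca2 act together on resected DNA to start strand exchange, and 3 of these 4 genes rose. Brca1 encodes a ubiquitin ligase subunit that promotes resection and recombination (chr11:101488764-101551955, minus strand, GRCm38/mm10). It was at 29.6, 26.9, 30.1 and 28.7 CPM in wild type and at 40.8, 38.3 and 44.0 CPM in knockdown. Every knockdown library was above every wild-type library, and the log2 fold change was 0.51 (SE 0.12, adjusted p = 0.00138). Bard1 encodes the obligate partner of Brca1 (chr1:71027498-71103146, minus strand). It was at 23.5, 26.7, 24.7 and 22.6 CPM in wild type and at 35.1, 42.2 and 35.7 CPM in knockdown. Again the groups did not overlap, with knockdown 2 the highest, and the log2 fold change was 0.63 (SE 0.13, adjusted p = 0.000281). Within each library the ratio of Brca1 to Bard1 counts, which does not depend on library scaling, was 1.19 ± 0.12 (SD, n = 4) for wild type and 1.10 ± 0.17 for knockdown (SD, n = 3), and its ranges overlapped.

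Brca2, the breast cancer susceptibility protein that acts on single-stranded DNA (chr5:150522630-150570329, plus strand), showed the second-smallest rise of the 14. It was at 51.7, 43.0, 53.3 and 52.0 CPM in wild type and at 57.5, 58.0 and 67.4 CPM in knockdown. The groups did not overlap, yet wild-type 2 lay well below the other wild-type libraries, and the log2 fold change was 0.28 (SE 0.11, adjusted p = 0.0402). Without wild-type replicate 2 it was 0.22 and no longer passed (adjusted p = 0.124), and leaving out any knockdown library also ended the call (adjusted p = 0.0532, 0.0622 and 0.251 without replicates 1, 2 and 3; edgeR). Palb2 encodes the bridge between Brca1 and Brca2. It was low, from 2.42 to 6.79 CPM in wild type and from 5.05 to 8.05 CPM in knockdown, with overlapping groups (log2 fold change 0.39, SE 0.31, adjusted p = 0.376).

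Rad51b, Rad51c, Rad51d, Xrcc2 and Xrcc3 encode related proteins that assist strand exchange, and 0 of these 5 genes passed in either direction (edgeR), nor did any at an unadjusted p under 0.05, with DESeq2 or with limma-voom. Their log2 fold changes were 0.54 for Rad51b, -0.33 for Rad51c, 0.13 for Rad51d, 0.44 for Xrcc2 and -0.04 for Xrcc3. The nearest to a call was Xrcc2, at 8.29, 6.86, 6.601 and 7.22 CPM in wild type and at 11.6, 9.71 and 8.20 CPM in knockdown (adjusted p = 0.157). Knockdown 3 fell within the wild-type range, so the groups overlapped. The approximate 95% interval of the Xrcc2 log2 fold change was -0.01 to 0.89, and that of Rad51c -0.83 to 0.17. The Xrcc2 interval holds a rise of the size seen in Brca1, and the Rad51c interval does not. Rad51b had as few as 9 counts in a library, so its value carries a large counting error.

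Rad54l encodes the motor that drives strand exchange (chr4:116094264-116123690, minus strand), and it had the smallest adjusted p of the 34 genes. It was at 21.6, 22.9, 20.2 and 18.0 CPM in wild type and at 36.9, 38.7 and 35.8 CPM in knockdown. The groups were far apart compared with their spread, and the log2 fold change was 0.85 (SE 0.13, adjusted p = 7.62e-06, edgeR). Lrrc41 covers 15.4% of the Rad54l exons on the opposite strand and was at 10.8 CPM in wild type and at 10.7 CPM in knockdown. Rad54b, the paralog of Rad54l (chr4:11558922-11615805, plus strand), had a lower level than Rad54l in both groups and also rose. It was at 5.29, 7.40, 6.86 and 5.68 CPM in wild type and at 9.84, 9.88 and 9.30 CPM in knockdown. These groups also did not overlap (log2 fold change 0.62, SE 0.24, adjusted p = 0.0460). The call of Rad54b was lost in 10 of 17 alternative settings, with adjusted p from 0.0518 to 0.124, among them leaving out wild-type replicate 1, 3 or 4 or any knockdown library. Of its exons, 35.8% overlap Fsbp on the same strand, a gene at 0.51 CPM in wild type and at 0.81 CPM in knockdown. Rad52, a strand-annealing protein, did not pass (5.36 to 11.2 CPM in wild type, 5.21 to 9.61 CPM in knockdown, log2 fold change -0.18, adjusted p = 0.679).

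**Figure D2:**
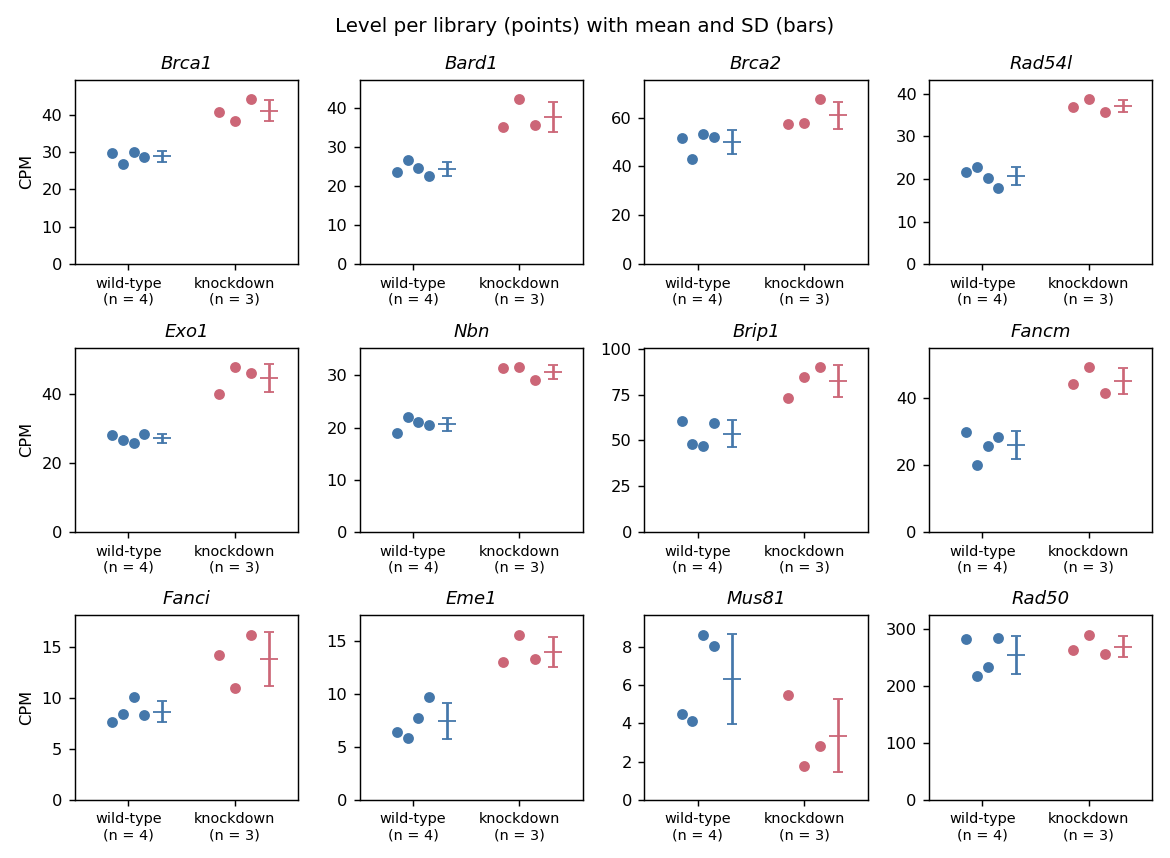
CPM per library (points) with mean and SD (bars) for 12 of the 34 genes in 4 wild-type and 3 knockdown libraries; each panel has its own y axis from 0. In the 10 panels other than Mus81 and Rad50 the knockdown points lie above all wild-type points, as for Rad54l at 35.8 to 38.7 against 18.0 to 22.9 CPM.

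The Mre11a-Rad50-Nbn complex senses broken ends, and Rbbp8 and Exo1 help trim them. Here 3 of 5 genes rose. Nbn, the regulatory subunit that recruits the kinase Atm (chr4:15957925-15992589, plus strand), was at 18.9, 22.0, 21.0 and 20.4 CPM in wild type and at 31.4, 31.5 and 29.1 CPM in knockdown. Both groups were tight and did not overlap (log2 fold change 0.58, SE 0.14, adjusted p = 0.00147, edgeR). Its partners did not pass, and their measured differences were small. Mre11a, the nuclease, was at 49.9 to 57.8 CPM in wild type and at 52.2 to 61.1 CPM in knockdown, with an approximate 95% interval of the log2 fold change of -0.15 to 0.25. Rad50, the ATPase that tethers ends, was at 217.7 to 284.2 CPM and 255.7 to 289.2 CPM, with an interval of -0.07 to 0.23. Those intervals do not reach the 0.58 measured for Nbn, though the difference between subunits was not tested. The ratio of Rad50 to Mre11a counts was 4.65 ± 0.41 (SD, n = 4) for wild type and 4.78 ± 0.52 for knockdown (SD, n = 3), with overlapping ranges.

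Exo1 encodes the exonuclease of long-range resection (chr1:175880581-175913489, plus strand). It was at 28.0, 26.5, 25.6 and 28.2 CPM in wild type and at 39.97, 47.7 and 45.9 CPM in knockdown. No knockdown library came near the wild-type range, and the log2 fold change was 0.72 (SE 0.12, adjusted p = 2.18e-05, edgeR). Rbbp8, the CtIP protein that starts resection, was at 82.1, 78.5, 82.7 and 76.8 CPM in wild type and at 101.5, 95.03 and 94.2 CPM in knockdown. Its groups did not overlap, but the step was small (log2 fold change 0.28, SE 0.082, adjusted p = 0.00973). The Rbbp8 call was lost without knockdown replicate 1 (0.24, adjusted p = 0.0590) and with a correction for GC content and exonic length (0.19, adjusted p = 0.0748).

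Among the helicases, Brip1 and Blm rose. Brip1, the Fancj helicase that binds Brca1 (chr11:86058138-86201193, minus strand), was at 60.45, 47.8, 47.3 and 59.7 CPM in wild type and at 73.1, 84.5 and 90.03 CPM in knockdown. Wild-type 1 and 4 were higher than 2 and 3, and all knockdown libraries were higher still (log2 fold change 0.62, SE 0.10, adjusted p = 1.97e-05, edgeR). Blm, the Bloom syndrome helicase that dissolves joined recombination intermediates (chr7:80454733-80535119, minus strand), was at 26.9, 25.6, 25.7 and 21.1 CPM in wild type and at 34.9, 32.9 and 31.4 CPM in knockdown. The groups did not overlap (log2 fold change 0.41, SE 0.13, adjusted p = 0.0171). The Blm call was lost without wild-type replicate 4 (0.34, adjusted p = 0.0606), without knockdown replicate 1 (0.37, adjusted p = 0.0800) or without knockdown replicate 2 (0.42, adjusted p = 0.0540). Rmi1, a Blm partner, was at 14.0, 11.7, 12.0 and 24.2 CPM in wild type and at 11.8, 14.3 and 14.3 CPM in knockdown. Wild-type 4 was the highest library and the groups overlapped (log2 fold change -0.20, adjusted p = 0.525), and without wild-type replicate 4 the sign turned (0.10, adjusted p = 0.771).

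In the Fanconi core complex 2 of 7 genes rose. Fancm, the translocase that anchors the complex to DNA (chr12:65075603-65132058, plus strand), was at 29.8, 20.1, 25.7 and 28.4 CPM in wild type and at 44.15, 49.2 and 41.6 CPM in knockdown. Wild-type 2 was the lowest library, and the groups did not overlap (log2 fold change 0.79, SE 0.13, adjusted p = 1.89e-05, edgeR). Fancb, a subunit of the catalytic module (chrX:164980592-164997272, plus strand), was at 4.47, 1.56, 4.05 and 4.56 CPM in wild type and at 5.97, 7.87 and 7.87 CPM in knockdown. It had the largest rise of the 14, 0.98 (SE 0.32, adjusted p = 0.0196), at a low level with as few as 23 counts in a library. The Fancb call was lost without wild-type replicate 2 (0.73, adjusted p = 0.0591), without knockdown replicate 2 (0.91, adjusted p = 0.0871) or without knockdown replicate 3 (0.91, adjusted p = 0.0797).

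The other 5 core genes did not pass. Fanca was at 1.69, 0.82, 0.59 and 2.19 CPM in wild type and at 3.46, 2.50 and 2.99 CPM in knockdown. Its groups did not overlap and its log2 fold change of 1.16 was the largest of all 34, but with as few as 9 counts in a library the SE was 0.55 and the adjusted p 0.115. Fancc, at 4.48 to 5.01 CPM in wild type and at 5.55 to 7.68 CPM in knockdown, did not overlap either (0.39, SE 0.28, adjusted p = 0.333). Fancl, the ubiquitin ligase subunit, had 0.27 (adjusted p = 0.365), Fancf -0.29 (adjusted p = 0.294) and Fancg -0.21 (adjusted p = 0.710), all with overlapping groups. Antisense neighbours cover 13.7% of the Fancl exons, 10.5% of those of Fanca and part of those of Fancf, and without a stated strand setting their reads cannot be told apart.

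Fancd2 and Fanci form the clamp that the core complex marks with ubiquitin, and the genes of this pair differed in whether they passed. Fanci (chr7:79391929-79450264, plus strand) was at 7.63, 8.42, 10.1 and 8.35 CPM in wild type and at 14.2, 10.9 and 16.1 CPM in knockdown. Knockdown 2 lay just above wild-type 3, and the groups did not overlap (log2 fold change 0.67, SE 0.21, adjusted p = 0.0130, edgeR). The Fanci call was lost without knockdown replicate 1 (0.65, adjusted p = 0.0523) or without knockdown replicate 3 (0.54, adjusted p = 0.117). Polg covers 16.0% of the Fanci exons on the opposite strand and was at 16.5 and 15.9 CPM in wild type and knockdown. Fancd2 was at 15.6, 13.7, 15.2 and 14.0 CPM in wild type and at 19.1, 15.3 and 16.1 CPM in knockdown, with overlap (0.20, SE 0.17, adjusted p = 0.419). The ratio of Fancd2 to Fanci counts was 2.04, 1.63, 1.51 and 1.67 in wild type and 1.35, 1.40 and 0.996 in knockdown. All knockdown ratios lay below all wild-type ratios, with fewer Fancd2 counts per Fanci count, and no test was run on the ratio.

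Of the nucleases that cut crosslinks and joined intermediates, Eme1 rose and Mus81, its catalytic partner, did not. Eme1 (chr11:94644996-94653964, minus strand) was at 6.43, 5.84, 7.78 and 9.71 CPM in wild type and at 13.1, 15.6 and 13.3 CPM in knockdown. The groups were clear of each other (log2 fold change 0.91, SE 0.22, adjusted p = 0.00142, edgeR). Lrrc59, which covers 8.0% of the Eme1 exons on the opposite strand, rose by a similar 0.89 (from 52.96 to 98.5 CPM, adjusted p = 3.25e-09), and its part in the Eme1 value was not tested. Mus81 (chr19:5482345-5488402, minus strand) was at 4.47, 4.14, 8.63 and 8.05 CPM in wild type and at 5.49, 1.79 and 2.80 CPM in knockdown. Wild-type 3 and 4 were higher than wild-type 1 and 2, knockdown 1 lay inside the wild-type range, and the call was just missed (log2 fold change -0.91, SE 0.36, adjusted p = 0.0535).

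Mus81 passed as lower in 5 of 17 alternative settings. These were no low-count filter (-0.91, adjusted p = 0.0295), at least 50 counts in at least 3 libraries (-0.91, adjusted p = 0.0480), and leaving out wild-type replicate 1 (-1.05, adjusted p = 0.0309), wild-type replicate 2 (-1.07, adjusted p = 0.0257) or knockdown replicate 1 (-1.47, adjusted p = 0.0093; edgeR). Over all 17 settings its adjusted p ran from 0.0093 to 0.282. The ratio of Mus81 to Eme1 counts was 0.695, 0.709, 1.11 and 0.8293 in wild type and 0.420, 0.115 and 0.211 in knockdown. Every knockdown library had fewer Mus81 counts per Eme1 count than every wild-type library, with means of 0.836 ± 0.192 (SD, n = 4) and 0.249 ± 0.156 (SD, n = 3), and no test was run on the ratio.

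Ercc4, the XPF endonuclease, missed the threshold narrowly, at 12.0, 12.5, 10.5 and 9.89 CPM in wild type and at 16.65, 16.8 and 13.5 CPM in knockdown (log2 fold change 0.48, SE 0.19, adjusted p = 0.05003, edgeR). Its groups did not overlap, and it passed in 5 of 17 settings, DESeq2 (adjusted p = 0.0359) and leaving out wild-type replicate 2 (0.53, adjusted p = 0.0387) among them. Its partner Ercc1 had overlapping groups (-0.12, SE 0.20, adjusted p = 0.703). The ratio of Ercc1 to Ercc4 was 1.24 ± 0.21 (SD, n = 4) for wild type and 0.824 ± 0.221 for knockdown (SD, n = 3), with overlapping ranges. Slx4, the scaffold that holds these nucleases, was at 11.6 to 15.3 CPM in wild type and at 17.2 to 17.5 CPM in knockdown without overlap, and did not pass (0.36, SE 0.17, adjusted p = 0.125).

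**Figure D3:**
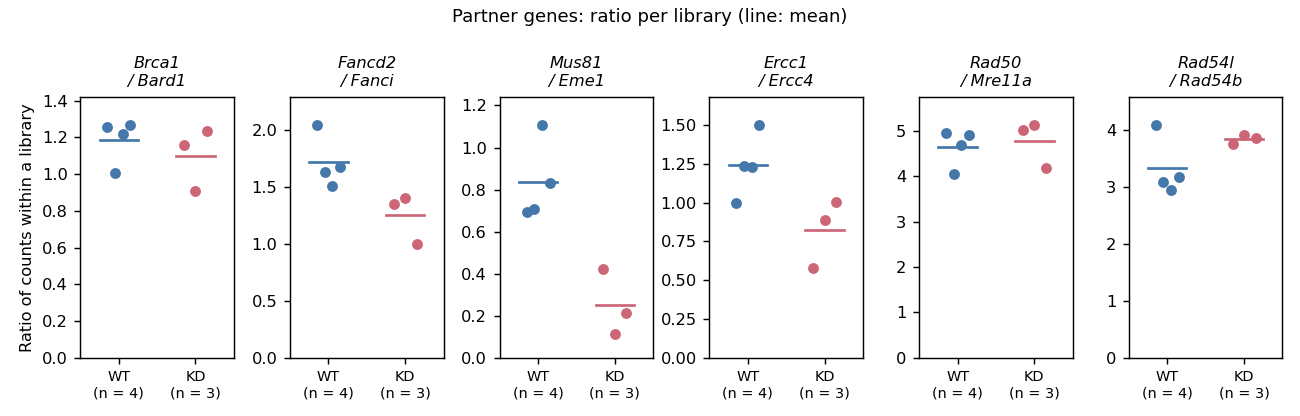
Ratio of counts of partner genes within each library (points; line is the mean) in 4 wild-type (WT) and 3 knockdown (KD) libraries, each panel with its own y axis from 0. The groups are apart for Fancd2 to Fanci and for Mus81 to Eme1, the latter at 0.115 to 0.420 in knockdown against 0.695 to 1.11 in wild type, and overlap in the other panels.

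Levels between genes can be compared only per length, so CPM was divided by the kilobases of merged exons. Rad50 was far above the rest at 47.3 CPM per kb in wild type, followed by Mre11a at 9.21, Fancf at 8.88, Nbn at 8.13 and Brip1 at 7.22 CPM per kb. At the other end Palb2 stood at 0.687, Fancc at 0.574, Rad51b at 0.549 and Fanca at 0.151 CPM per kb. Brca2 and Brca1 lay in the middle, at 3.67 and 3.38 CPM per kb, with Fancl at 3.41 between them. The sum over all 34 genes ranged from 796.1 to 902.8 CPM in wild type and from 1041 to 1078 CPM in knockdown. Rad50 alone made up 27.3 to 31.5% of that sum in wild type and 24.3 to 26.8% in knockdown. Without it the sums were 578.4 to 620.2 CPM and 779.2 to 795.5 CPM, so the higher total did not rest on the most abundant gene. In the order of the replicates, the wild-type sums over all 34 genes were 902.1, 796.1, 830.3 and 902.8 CPM. Rn45s took 10.7, 12.47, 12.09 and 11.08% of counts in those libraries. In knockdown the sums were 1041, 1078 and 1051 CPM and the Rn45s shares 8.56, 7.96 and 9.07%. A link between the sums and these shares was not tested.

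**Figure D4:**
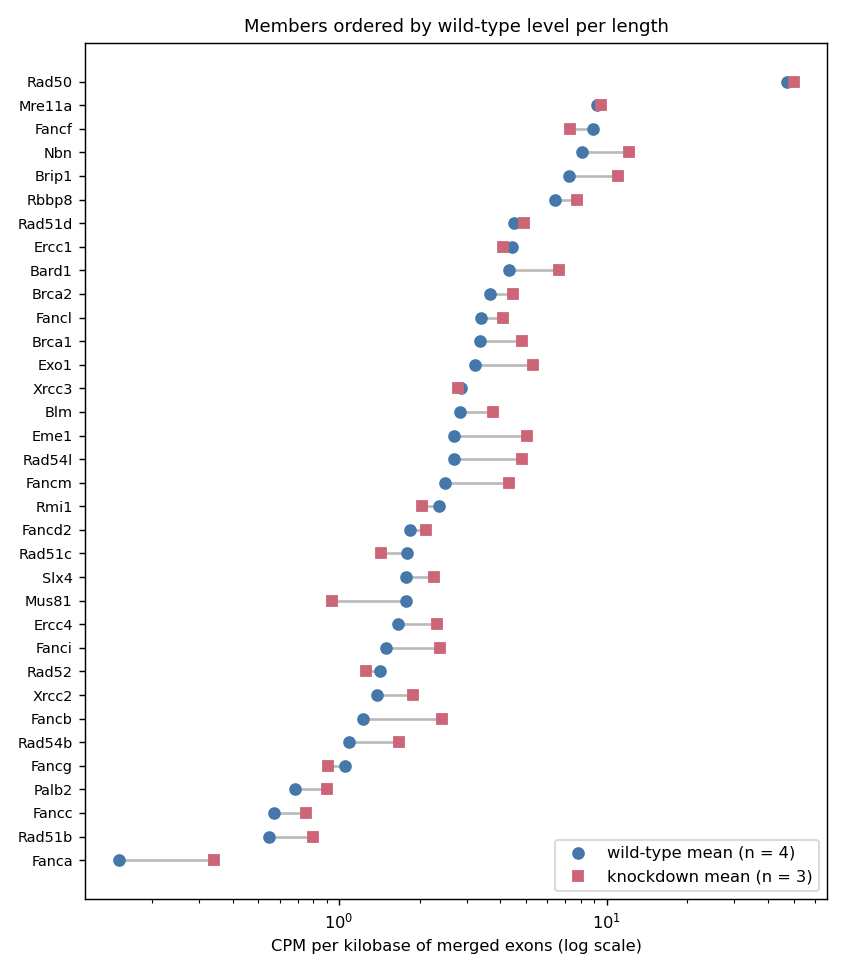
Mean CPM per kilobase of merged exons (log x axis) for the 34 genes, ordered by the wild-type mean; circles are wild type (n = 4) and squares knockdown (n = 3). Rad50 stands apart at 47.3 in wild type, and Fanca is lowest at 0.151.

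A list of 43 further recombination and Fanconi genes, of which 41 were tested, had 18 higher and 1 lower and a median log2 fold change of 0.43. Dna2, a resection nuclease and helicase, went from 3.84 to 12.2 CPM (1.67, SE 0.24, adjusted p = 2.10e-06, edgeR). Polq, the polymerase of microhomology-mediated joining, went from 5.38 to 15.03 CPM (1.48, SE 0.22, adjusted p = 2.02e-06). Rad51ap1 rose by 0.64 (SE 0.12, adjusted p = 8.46e-05), and Tonsl, which acts at stalled forks, by 0.91 (adjusted p = 0.000612). Rmi2, a further Blm partner, rose by 0.82 (adjusted p = 0.0114), a call lost without wild-type replicate 3 (0.63, adjusted p = 0.0525), knockdown replicate 2 (0.72, adjusted p = 0.0770) or knockdown replicate 3 (0.74, adjusted p = 0.0621). The 1 that fell was Faap100, a core complex subunit named after its value was seen (-0.44, adjusted p = 0.0424). That count was 0 without wild-type replicate 1 or 4, without knockdown replicate 2 or 3, with a replicate block and with the GC and length correction.

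Other repair pathways did not share one direction, though their lists are small and some shares lay near those of all tested genes (14.1% higher, 15.3% lower). In signalling from broken ends 11 of 26 genes were higher and 2 lower (median 0.21), with the fork protein Clspn (1.04), the kinase Atm (0.73) and Timeless (0.64) up and Paxip1 (-0.81), a scaffold at breaks, down. Without knockdown replicate 2, 1 of these genes was lower. In mismatch repair 4 of 10 were higher and 0 lower (edgeR, DESeq2 and limma-voom, with 0 lower at an unadjusted p under 0.05), with Msh6 (0.47), Pcna (0.46) and Lig1 (0.36) among those higher. Non-homologous end joining, the route that rejoins ends without a template, had 0 of 11 higher and 3 lower (median -0.10). The 3 are 27.3% of that list, beside 15.3% of all tested genes, and so few genes do not set a direction for the pathway. No gene of it was higher with DESeq2, with limma-voom or at an unadjusted p under 0.05. Polm, a gap-filling polymerase, fell from 17.5 to 9.46 CPM (-0.88, SE 0.20, adjusted p = 0.00103, edgeR). Mad2l2, a shieldin subunit, and Xrcc5, the Ku80 protein, fell by less (-0.43, adjusted p = 0.0309, and -0.31, adjusted p = 0.0375). Only 1 of these genes passed without knockdown replicate 1 or 3.

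Nucleotide excision repair had 2 of 18 higher and 4 lower (median -0.01), base excision repair 4 of 19 higher and 3 lower (median -0.12), and translesion synthesis 1 of 11 higher and 2 lower (median 0.00). Ercc3, a helicase of TFIIH, was higher (0.33), while Xpc, the damage sensor, was lower (-0.46, adjusted p = 0.00826; 0.0612 without knockdown replicate 3). Fen1, the flap nuclease of replication and base repair, rose by 0.84 and Apex2 by 0.99. Mutyh, a glycosylase that removes adenine mispaired with oxidised guanine, was lower (-0.68, adjusted p = 0.0215), a call lost without wild-type replicate 4 (-0.64, adjusted p = 0.0511), knockdown replicate 2 (-0.59, adjusted p = 0.101) or knockdown replicate 3 (-0.58, adjusted p = 0.111; edgeR). In translesion synthesis Primpol, a primase that restarts forks, was lower by the most (-0.95, adjusted p = 0.00825; -0.77 and adjusted p = 0.0681 without knockdown replicate 2), and Poli, a bypass polymerase, fell by 0.66 on the log2 scale. The shares called higher in these lists, 11.1%, 21.1% and 9.09%, lay on both sides of the 14.1% of all tested genes. The shares called lower were 22.2%, 15.8% and 18.2%, beside 15.3% of all tested genes. Leaving out single libraries moved these small counts: nucleotide excision repair had 1 higher when wild-type replicate 1, 2 or 3 or knockdown replicate 2 or 3 was left out, and 2 lower without wild-type replicate 1 or 4 or knockdown replicate 3. Base excision repair had 1 lower without knockdown replicate 3. It had 5 lower, more than were higher, with upper-quartile factors, with no low-count filter and with at least 50 counts in at least 3 libraries, and 6 lower at an unadjusted p under 0.05. Translesion synthesis had 0 higher without wild-type replicate 1, 3 or 4 or any knockdown replicate, and 1 lower without knockdown replicate 2.

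**Figure D5:**
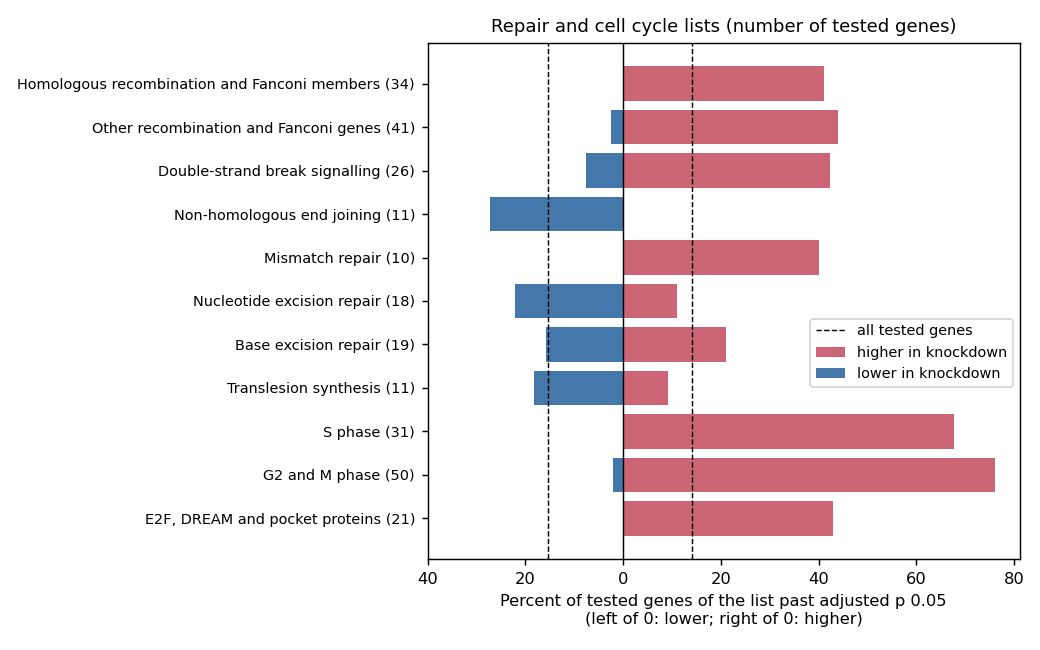
Percent of tested genes in each list that passed as higher (right of 0) or lower (left of 0) in knockdown; dashed lines mark all tested genes, 14.1% higher and 15.3% lower. The recombination lists reach 41.2% and 43.9% higher, while non-homologous end joining has none higher and 27.3% lower.

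Cell cycle genes were also higher. The S phase list is not separate from the others: it shares Rpa2 and Usp1 with the further recombination list and E2f8 with the E2F list. Of 31 S phase genes 21 were higher and 0 lower (edgeR, with 0 lower at an unadjusted p under 0.05 and 0 with DESeq2 or limma-voom), and their summed level ranged from 2672 to 2745 CPM in wild type and from 3702 to 3741 CPM in knockdown. Of 50 G2 and M phase genes 38 were higher and 1 lower, with sums of 9097 to 9852 CPM and 11930 to 12230 CPM. The median log2 fold changes of these lists, 0.39 and 0.34, were close to the 0.39 of the 34 recombination genes. Rrm2 (1.16), Ccne2 (1.10), Cdc6 (0.998) and Rpa2 (0.80) led the S phase list, and Kif20b (0.77), Gtse1 (0.71) and Ttk (0.65) the mitotic one, in which the chromatin protein Hmgb2 fell from 204.6 to 100.4 CPM (-1.03).

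Among the E2F factors and their partners, which switch replication and recombination genes on and off, 9 of 21 were higher and 0 lower (edgeR; 1 lower at an unadjusted p under 0.05, and 0 with DESeq2 or limma-voom). Without knockdown replicate 3 the count higher was 5, and without wild-type replicate 2 the count lower was 1. E2f7, a repressor, was at 14.8, 17.4, 13.3 and 16.3 CPM in wild type and at 39.4, 37.2 and 46.9 CPM in knockdown. It more than doubled in every knockdown library (1.41, SE 0.14, adjusted p = 1.55e-09). The activator E2f1 rose by 0.56 (SE 0.11, adjusted p = 9.69e-05) and Foxm1, a mitotic activator, by 0.50 (adjusted p = 0.000108). E2f4, a repressor of quiescent cells, and E2f8, a relative of E2f7, did not pass (-0.14, adjusted p = 0.356, and 0.07, adjusted p = 0.546).

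The start regions of these genes were read from RefSeq (GRCm38.p6), as windows from 250 bases before to 50 bases after a transcript start, for 26 of the 34 genes. The letters TTTCCCGC, TTTCGCGC, TTTGGCGC and TTTGCCGC, forms of the E2F consensus, were searched on both strands. They stood in the window of 5 of 26 genes (19.2%), beside 4.95% of 8886 tested genes with a window. A shorter form, the same letters without the leading T (as in TTCCCGC), chosen after that result was seen and containing the longer form, stood in 14 of 26 (53.8%), beside 20.4% of the tested genes and 9.57% of all 32851 windows. The shorter form was present in 8 of the 10 genes that rose and have a window, and in 6 of the 16 that did not pass (80.0% and 37.5%). The longer form, searched first, stood in 2 of the 10 and 3 of the 16 (20.0% and 18.8%). Not every window lay at the outer end of its gene in GENCODE. The whole window was inside the gene for Fancc, Slx4, Fancl and Ercc1, which did not pass, and for Fanci, which rose. Of these, Ercc1 and Fanci held the shorter form. Rmi1 and Rad51c, which did not pass, each have a further window wholly inside the gene, and Rad51b and Rad54l also have more than a single window. A match in any window counted, so more letters were searched for these genes. The longer form of Rmi1 stood only in its inner window. The only match of Brca1 lay 21 bases after the start and that of Fanci 18. CCAAT stood in 16 of 26, beside 43.6% of tested genes, in 6 of the 10 that rose and 10 of the 16 that did not pass (60.0% and 62.5%), and TTTGAA in 3 of 26, beside 13.7%. A match is a description of letters and not a binding site. To show how matches fell among genes with and without a rise, the 120 bases before the start are printed for 4 genes, with the shorter form in capitals. They are Fancm (chr12:65075483-65075602, plus strand), Brip1 (chr11:86201194-86201313, minus strand), Rad54l (chr4:116123691-116123810, minus strand) and Rad51c (chr11:87404955-87405074, minus strand).
Fancm: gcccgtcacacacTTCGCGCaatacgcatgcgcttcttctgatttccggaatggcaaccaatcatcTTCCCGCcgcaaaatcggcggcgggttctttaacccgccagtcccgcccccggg
Brip1: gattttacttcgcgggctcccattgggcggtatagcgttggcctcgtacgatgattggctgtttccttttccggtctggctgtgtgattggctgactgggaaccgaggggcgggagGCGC
Rad54l: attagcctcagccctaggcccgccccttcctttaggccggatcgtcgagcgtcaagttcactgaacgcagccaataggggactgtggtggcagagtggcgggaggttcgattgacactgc
Rad51c: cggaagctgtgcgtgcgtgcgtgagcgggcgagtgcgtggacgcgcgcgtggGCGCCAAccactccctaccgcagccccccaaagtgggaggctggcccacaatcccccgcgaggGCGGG
Fancm, which rose, holds a pair of matches, and Brip1, which rose, has the first bases of a match that runs across the start. Rad54l, with the smallest adjusted p of the list, has none in its window. Rad51c, which did not pass, holds 2, the second also running across the start.

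The genes that rose were longer and richer in A and T than the rest. The 14 had a median of 7.58 kb of merged exons and 44.6% GC, the 20 that did not pass 5.30 kb and 48.3%, and all tested genes 4.49 kb and 49.6%. With GC content and exonic length corrected in each library, 11 genes were higher, and Brca2 (0.20, adjusted p = 0.136), Rad54b (0.58, adjusted p = 0.0626) and Rbbp8 no longer passed (edgeR). Of the 14, 8 passed in all 17 alternative settings: Brca1, Bard1, Rad54l, Nbn, Exo1, Brip1, Fancm and Eme1. These 8 come from 6 of the 8 roles, the exceptions being the group of Rad51b, Rad51c, Rad51d, Xrcc2 and Xrcc3 and the Fancd2-Fanci pair.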

How the data were processed

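The authors deposited raw counts of reads by gene symbol, in one table for all 7 libraries (4 wild type, 3 knockdown), with 0 further sample columns. Trimmomatic, STAR, HTSeq and mm10 are named by the submitters' processing notes, without versions. Not given in the sources used here are the annotation, the strand setting and the handling of reads matching several genes.

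Genes were kept by filterByExpr, which left 11594 of 24419 (9012 had no count), and scaled by TMM. The robust quasi-likelihood test of edgeR 4.0.16 (R 4.3.3) compared knockdown with wild type without covariates, adjusted by Benjamini-Hochberg over all tested genes, threshold 0.05. The SE is the absolute log2 fold change over the square root of F, and intervals are approximate (95%). The procedure was run on simulated data in which far fewer genes were changed than were called here, so that run does not bear on these calls. CPM uses TMM-scaled totals. Positions and merged exons come from GENCODE M21 (GRCm38, the same assembly as mm10). Depth ranged from 14987324 to 18673395 counts, which leaves genes of a few CPM with few counts and a wide counting error.

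The 34 genes and all lists were chosen with earlier results of these data known, so the lists received no test. All 34 genes were named, as were Ddx54, Rad51ap1, chosen E2F genes and, from each other list, up to 4 called genes with the largest change; genes overlapping exons of named genes are given for their position. The S phase list shares genes with the further recombination, mismatch, signalling and E2F lists. Some genes that this rule takes are not reported. Hrob and Paxx were not matched by symbol. Alternatives were RLE or upper-quartile factors, other filters, DESeq2 1.42.0, a replicate block, limma-voom (limma 3.58.1), thinning to equal depth, a GC and length correction (loess span 0.5), library sizes without Rn45s, and leaving out each library. Libraries of a group all differed by more than sampling noise (chi-square per degree of freedom 8.31 to 16.3). The single-cell part of the series was not analysed here.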

Additional observations from a re-analysis of the deposited data

Results flagged for a closer look

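In the 4 wild-type libraries, 39 quantities, among them the level of each of the 34 genes, were checked for a library far from the other 3, and 4 were found, where chance gives about 2. Wild-type 2 was low for Brca2, at 43.0 CPM against 51.7 to 53.3 CPM in the others. It was also low for Rad51c, at 5.50 CPM against 8.56 to 8.94 CPM, and for Fancb, at 1.56 CPM against 4.05 to 4.56 CPM. Wild-type 1 was high for Fancl, at 15.3 CPM against 10.1 to 10.5 CPM. Brca2 and Fancb rose in knockdown and lost their calls without wild-type replicate 2 (adjusted p = 0.124 and 0.0591, edgeR). Rad51c and Fancl did not pass.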

How the results depend on the processing

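Genes higher in knockdown numbered 1222 to 1716 over the 17 alternatives and genes lower 1409 to 1860, and Ddx54 had log2 fold changes of -0.93 to -0.81. Of the 34 genes, 11 to 15 were higher in the alternatives that keep all libraries, and 9 to 13 when single libraries were left out. The fewest, 9, came without knockdown replicate 1, where Blm, Brca2, Fanci, Rad54b and Rbbp8 lost their calls. The count of the 34 genes lower was 1, Mus81, with no low-count filter and with at least 50 counts in at least 3 libraries, and 0 to 1 when single libraries were left out. The median log2 fold change was 0.37 to 0.40 with all libraries and 0.30 to 0.44 with single libraries left out. The sign turned for 6 genes that did not pass in any setting: Rmi1 (0.097 with the replicate block, and -0.32 to 0.098 with single libraries left out), Xrcc3 (0.044 with the GC and length correction, and -0.19 to 0.083 with single libraries left out), and, with single libraries left out, Rad51d (-0.039 to 0.29), Rad52 (-0.43 to 0.017), Ercc1 (-0.25 to 0.049) and Mre11a (-0.0095 to 0.10). The cause was not tested. Same-numbered libraries did not deviate together (Pearson r across genes -0.034, -0.027 and -0.0063). So few pairs gave no sign of pairing by number and cannot exclude a shared batch. With the replicate block, 11 of the 34 genes were higher and Blm, Brca2 and Rad54b were not, and 1375 genes in all were higher and 1487 lower. Depth limits the 6 genes with under 50 counts in some library.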
